A study of Mus musculus with 4 samples.

Results

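The 6 genes described here encode the ligands and the main receptors of TGF-beta signalling: Tgfb1, Tgfb2 and Tgfb3, and Tgfbr1, Tgfbr2 and Tgfbr3. They were chosen by symbol, and each symbol named 1 of the 31054 features in both mRNA count matrices. The cells came from the ears of C57BL/6 mice at postnatal day 8 that carried Cdh5CreERT2, an inducible Cre recombinase under the control of the endothelial Cdh5 gene, and a red reporter labelled Rtom. They were enriched on beads for CD31, sorted as live cells positive for CD31 and the reporter, and measured as droplet-based single-cell 3′ RNA libraries. The 2 libraries, labelled as biological replicates, form a single group with no second treatment or genotype to compare. How the inducible Cre was switched on is not described here. The comparisons below are between cell classes within these libraries. The number of animals behind each library is not known here. Adult and wounded ears, which the protocol also mentions, and the antibody tag libraries were not analysed here.

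Ligands of the TGF-beta family are secreted as latent complexes that are held in the matrix and have to be released before they can bind. The released ligand binds the kinase receptor Tgfbr2, which recruits and activates the kinase receptor Tgfbr1 (ALK5), and this complex phosphorylates SMAD2 and SMAD3. The co-receptor Tgfbr3 (betaglycan) presents ligand, above all the TGF-beta2 isoform, to Tgfbr2. Endothelial cells also carry the receptor Acvrl1 (ALK1) and the co-receptor endoglin, which signal through SMAD1 and SMAD5, and Smad6 and Smad7 are inhibitors that the pathways themselves induce.

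Library 1 held 1745 cell barcodes and library 2 held 2877, with 15989249 and 26675353 unique molecular identifiers (UMIs). After filtering, 1497 and 2239 cells remained, with medians of 8458 and 8982 UMIs per cell, and 1 barcode occurred in both libraries. Each cell was placed in a class by how many marker genes of that class it carried, or by its mean marker score, and no member gene took part. Gates in both libraries together gave 459 artery-like, 348 capillary-like, 393 vein-like, 389 tip-like and 870 lymphatic-like cells, and 239 pericyte-like cells. A further 906 blood endothelial cells met no gate (32.5% and 39.1% of the blood endothelial cells), and 15.7% and 18.3% lay close to a cut. The 4 blood classes are therefore ranges of a marker score and not separate clusters. The summed level of 6 endothelial markers was 4268 to 5368 CPM (UMIs of a gene scaled to 1000000 UMIs of its class) in the blood classes, 2812 and 2433 CPM in lymphatic-like cells and 3055 and 2770 CPM in pericyte-like cells. Of the immediate-early and stress genes, 22 of 22 to 23 of 24 stood higher in library 2 in each blood class, and 15 of 24 did in lymphatic-like cells. The part of this difference between libraries in the results below was not tested, and the library was a term in each fit.

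All values below are CPM, given first for library 1 and then for library 2. The libraries count 3′ ends, so isoforms of a gene are not told apart. Log2 changes come from edgeR's quasi-likelihood test on UMIs summed per class and library, with their standard error (SE) and a Benjamini-Hochberg adjusted p over all genes tested. Each class has 2 libraries, and p-values rest on the spread left within classes once a shared library difference is taken out. This spread is pooled over the classes of a fit and moderated across genes. Counting intervals cover counting error alone.

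Tgfb1 lies on chromosome 7 (25687002 to 25705077, plus strand), Tgfb2 on chromosome 1 (186622792 to 186705989, minus strand) and Tgfb3 on chromosome 12 (86056745 to 86079041, minus strand) in GRCm38. The receptor genes lie apart from them and from each other: Tgfbr1 on chromosome 4 (47353222 to 47414931, plus strand), Tgfbr2 on chromosome 9 (116084293 to 116175360, minus strand) and Tgfbr3 on chromosome 5 (107106570 to 107289629, minus strand). Tgfb3 overlaps the protein-coding gene Ttll5 on the opposite strand and Tgfb2 overlaps the antisense gene Gm29491. No label or header says whether the counting used the strand, and without it reads of these pairs cannot be told apart.

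The 250 bases before the annotated start are shown for Tgfb2 and Tgfbr2, which were both higher in artery-like cells, and for Tgfb1, the ligand that varied least between classes. The RefSeq promoter table (GRCm38.p6) held entries for 4 of the 6 members, and none for Tgfb3 and Tgfbr3. Capitals mark matches, on either strand, to 7 short motifs. These were the GC box GGGCGG, the letters CAGAC that SMAD proteins bind, the cyclic AMP response element TGACGTCA, the letters GTGGGAA that the Notch effector RBPJ binds, the TATA box as TATAAA, the AP-1 element TGANTCA and the E-box CACGTG. No match in these windows overlapped a match to another motif. The windows are chr1:186705990-186706239 (minus strand) for Tgfb2, chr9:116175364-116175613 (minus strand) for Tgfbr2 and chr7:25686752-25687001 (plus strand) for Tgfb1.
Tgfb2: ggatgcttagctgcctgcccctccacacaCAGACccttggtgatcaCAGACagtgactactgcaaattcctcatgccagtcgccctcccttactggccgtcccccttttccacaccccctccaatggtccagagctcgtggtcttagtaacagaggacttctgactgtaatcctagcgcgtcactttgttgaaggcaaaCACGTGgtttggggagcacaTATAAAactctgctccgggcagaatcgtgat
Tgfbr2: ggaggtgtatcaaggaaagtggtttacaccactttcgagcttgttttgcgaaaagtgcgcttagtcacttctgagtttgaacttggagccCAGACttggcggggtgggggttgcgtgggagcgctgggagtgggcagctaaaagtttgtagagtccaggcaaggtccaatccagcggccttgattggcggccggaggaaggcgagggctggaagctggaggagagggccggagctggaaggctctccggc
Tgfb1: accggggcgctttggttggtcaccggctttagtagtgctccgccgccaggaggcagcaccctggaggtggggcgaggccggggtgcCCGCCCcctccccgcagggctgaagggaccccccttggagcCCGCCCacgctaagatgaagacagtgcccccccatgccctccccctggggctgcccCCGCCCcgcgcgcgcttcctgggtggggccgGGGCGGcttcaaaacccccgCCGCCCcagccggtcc
The Tgfb2 window held TATAAA beginning 31 bases before the start, CACGTG beginning 51 bases before it and 2 matches to CAGAC. Of 32851 mouse windows of this length, 12.4% held TATAAA, 6.02% CACGTG and 42.2% CAGAC. The Tgfbr2 window held 1 CAGAC and no other match. The Tgfb1 window held 5 matches to GGGCGG, which 32.7% of windows held, and had 75.2% G and C, against 53.6% for Tgfb2, 58.4% for Tgfbr2 and a median of 52.4% over all windows. Neither of the 2 artery-high genes held the RBPJ letters, which occurred in 5.42% of windows. These matches describe letters and are neither sites nor causes.

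The 6 genes fell into distinct patterns over the vessel types. All 6 differed among the 5 endothelial classes in the fit across all genes, in which 48.8% of the 10577 genes tested did so. The adjusted p was 3.91e-09 for Tgfb2, 7.09e-08 for Tgfb3, 3.09e-06 for Tgfbr2, 0.000253 for Tgfbr3, 0.00620 for Tgfb1 and 0.0316 for Tgfbr1. The calls of Tgfb1 (adjusted p = 0.0666) and Tgfbr1 (adjusted p = 0.677) were lost with DESeq2, that of Tgfbr1 also without dividing cells, and that of Tgfbr3 without the library term (adjusted p = 0.0695). Counts behind these values ran from 477 UMIs over the 6 classes for Tgfb3 to 6667 for Tgfbr2.

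**Figure D1:**
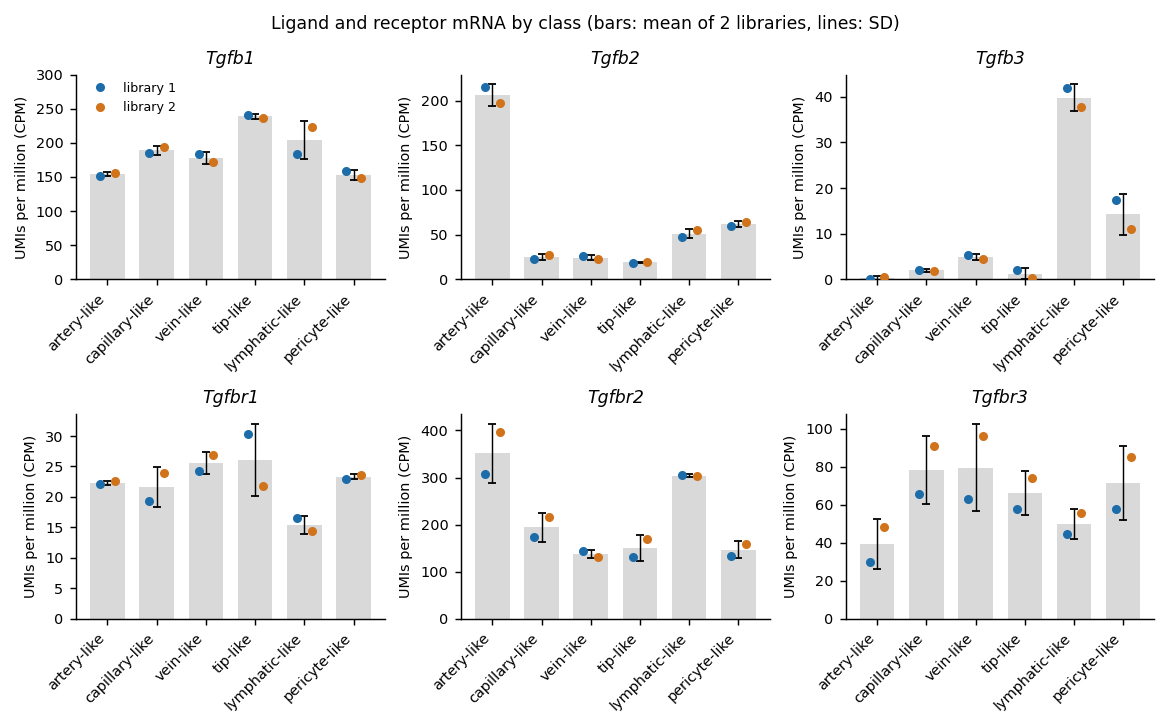
Level of each member (CPM, linear axis, 1 panel per gene with its own scale) in the 5 endothelial classes and in pericyte-like cells, with 1 point per library, bars for the mean and lines for the SD over the 2 libraries. Tgfb2 stands at 215 and 198 CPM in artery-like cells and Tgfb3 at 41.9 and 37.8 CPM in lymphatic-like cells, while Tgfbr1 stays between 14.4 and 30.3 CPM in all 6 classes.

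Tgfb1, the isoform that blood and immune cells make abundantly as well, was found in each class at 148 to 241 CPM. It was 241 and 236 CPM in tip-like, 184 and 223 CPM in lymphatic-like, 185 and 194 CPM in capillary-like, 184 and 172 CPM in vein-like, 152 and 156 CPM in artery-like and 159 and 148 CPM in pericyte-like cells. The lymphatic-like and capillary-like ranges overlapped, as did those of artery-like and pericyte-like cells, while tip-like cells stood above the other classes in both libraries. The mean in tip-like cells was 238.6 ± 3.28 CPM and that in artery-like cells 154.1 ± 3.16 CPM (SD, n = 2).

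Tgfb2, the isoform needed for heart valve and outflow tract development, had its highest level in artery-like cells. It was 215 and 198 CPM there (359 and 350 UMIs), 59.5 and 63.8 CPM in pericyte-like and 47.6 and 54.9 CPM in lymphatic-like cells. Capillary-like cells had 22.8 and 27.5 CPM, vein-like cells 26.4 and 22.4 CPM and tip-like cells 18.6 and 19.4 CPM. The artery-like libraries did not overlap with those of any other class, and capillary-like and vein-like cells could not be ordered. When each cell was thinned to 5000 UMIs, which left out 55 and 75 shallower artery-like cells, 41.2% (95% exact binomial interval 33.6 to 49.1) and 34.8% (27.5 to 42.6) of artery-like cells had a Tgfb2 UMI. The same share was 7.91% and 10.7% in vein-like cells and 22.0% and 20.6% in lymphatic-like cells. Before thinning, 51.8% of the artery-like cells of library 1 had a Tgfb2 UMI.

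Tgfb3, the isoform known for its part in palate closure, was low in the blood vessel classes and highest in lymphatic-like cells. It was 41.9 and 37.8 CPM in lymphatic-like cells (132 and 273 UMIs) and 17.4 and 11.0 CPM in pericyte-like cells (22 and 20 UMIs). Vein-like cells had 5.27 and 4.39 CPM (10 and 9 UMIs), capillary-like cells 2.14 and 1.75 CPM (3 and 3 UMIs) and tip-like cells 2.07 and 0.341 CPM (3 and 1 UMIs). In artery-like cells it was not detected in library 1 and stood at 0.564 CPM in library 2 (1 UMI). Lymphatic-like cells were above pericyte-like cells and those above vein-like cells in both libraries, whereas the capillary-like, tip-like and artery-like values overlapped in part. At 5000 UMIs per cell, 17.2% (12.9 to 22.2) and 16.7% (13.7 to 20.1) of lymphatic-like cells had a Tgfb3 UMI. The share was 0% (0 of 165 cells, upper bound 2.21) and 0.610% (0.0154 to 3.35) in artery-like cells, whose median depth before thinning was 6497 and 6126 UMIs against 8993 and 10258 in lymphatic-like cells.

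The few Tgfb3 UMIs of the blood classes were set beside those of Ccl21a, a chemokine of lymphatic endothelium whose RNA can be carried into other droplets. Ccl21a in the blood classes was 0.166% and 0.107% of its lymphatic-like level, and Tgfb3 was 5.95% and 4.38% of its own. Ccl21a is among the 6 lymphatic markers, and cells with at least 3 of these were kept out of the blood classes. The gate can thus lower the share of Ccl21a, while Tgfb3 took no part in gating. The contrast between these shares therefore cannot tell how much Tgfb3 RNA was carried over. Keratinocyte markers, another possible source of Tgfb3 RNA in skin, summed to 4.12 and 5.54 CPM over 7 genes in lymphatic-like cells, below the 9.21 to 17.9 CPM of the blood classes. Cells with at least 4 of these 7 keratinocyte markers had been gated out of every class here. The part of carried-over RNA of either source in the Tgfb3 counts, low or high, was not tested.

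Tgfbr1, the kinase that Tgfbr2 activates, stood between 14.4 and 30.3 CPM in the 6 classes. It was 30.3 and 21.8 CPM in tip-like, 24.3 and 26.8 CPM in vein-like, 23.0 and 23.7 CPM in pericyte-like, 22.1 and 22.6 CPM in artery-like, 19.2 and 24.0 CPM in capillary-like and 16.5 and 14.4 CPM in lymphatic-like cells. The lymphatic-like values lay below those of each other class, and the tip-like range overlapped with those of the other 4 classes. Vein-like values lay above pericyte-like, artery-like and capillary-like values, and the capillary-like range overlapped with the pericyte-like and artery-like ones.

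Tgfbr2, the receptor that binds ligand first, was highest in artery-like cells in library 2 and level with lymphatic-like cells in library 1. It was 307 and 396 CPM in artery-like, 306 and 303 CPM in lymphatic-like, 172 and 216 CPM in capillary-like, 131 and 170 CPM in tip-like, 133 and 159 CPM in pericyte-like and 143 and 132 CPM in vein-like cells. Artery-like and lymphatic-like cells stood above the other 4 classes in both libraries, and tip-like, pericyte-like and vein-like values overlapped. At 5000 UMIs per cell, 71.5% and 75.6% of artery-like and 78.0% and 75.1% of lymphatic-like cells had a Tgfbr2 UMI, against 48.6% and 43.8% of vein-like cells.

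Tgfbr3, the co-receptor, ran the other way to Tgfbr2 among the vessel types. It was 63.3 and 96.0 CPM in vein-like, 65.6 and 91.2 CPM in capillary-like, 57.9 and 85.3 CPM in pericyte-like, 57.8 and 74.3 CPM in tip-like, 44.4 and 55.5 CPM in lymphatic-like and 29.9 and 48.5 CPM in artery-like cells. Tgfbr3 was higher in library 2 in 6 of 6 classes, by 0.32 to 0.70 on the log2 scale with a median of 0.52, so its ranges overlapped across libraries and its order is read within each. Within both libraries vein-like and capillary-like cells exceeded pericyte-like cells, these exceeded tip-like cells, lymphatic-like cells came next and artery-like cells were the lowest. Vein-like and capillary-like cells changed places between the libraries, and pericyte-like and tip-like cells were 57.9 and 57.8 CPM in library 1.

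Artery-like against vein-like cells asks how the members differ across the arteriovenous axis. Tgfb2 and Tgfbr2 were higher in artery-like cells, and Tgfb3 and Tgfbr3 were lower. These 4 of 6 members compare with 18.9% of all 10577 genes called in this comparison, 9.29% higher and 9.62% lower. Tgfb2 was 8.37-fold higher (log2 change 3.07 ± 0.16 SE, adjusted p = 7.15e-08) and Tgfbr2 2.51-fold higher (1.33 ± 0.13, adjusted p = 1.11e-05). Tgfbr3 was at 0.487 of its vein-like level (-1.04 ± 0.16, adjusted p = 0.000412). Without the library term the adjusted p for Tgfbr3 was 0.0550, and with cells of at least 1000 genes and at most 5% mitochondrial UMIs its change was -0.43 (adjusted p = 0.328). Tgfb3 rested on 1 artery-like and 19 vein-like UMIs over both libraries, a ratio of 0.0603 with a 95% counting interval of 0.00145 to 0.380. Its fitted change of -3.85 (adjusted p = 0.00861) missed the threshold with DESeq2, with stricter gates and in Leiden clusters. Tgfb1 (-0.22 ± 0.12, adjusted p = 0.215) and Tgfbr1 (-0.21 ± 0.23, adjusted p = 0.600) did not pass the test.

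All blood endothelial cells, including those that met no gate, were also binned by the mean score of the 8 artery markers. The same score gave the artery-like gate, so the bins are not separate support for the difference above. Low bins mix vein-like, capillary-like, tip-like and ungated cells, so the bins set high artery scores against all other blood endothelial cells. From the bin below -0.3 to the bin above 0.8, Tgfb2 went from 24.7 and 23.3 CPM through 35.7 and 30.9, 51.0 and 61.7, and 148 and 133 to 220 and 222 CPM. Tgfb2 was higher in each successive bin in both libraries. Tgfbr2 went from 129 and 142 CPM in the lowest bin to 291 and 416 CPM in the highest. Its library 1 value peaked in the bin from 0.3 to 0.8, at 343 CPM. Tgfbr3 was 62.2 and 73.8 CPM in the lowest bin, reached 73.7 CPM in the second bin of library 1 and 85.2 CPM in the third of library 2, and was 22.7 and 34.4 CPM in the highest bin.

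**Figure D2:**
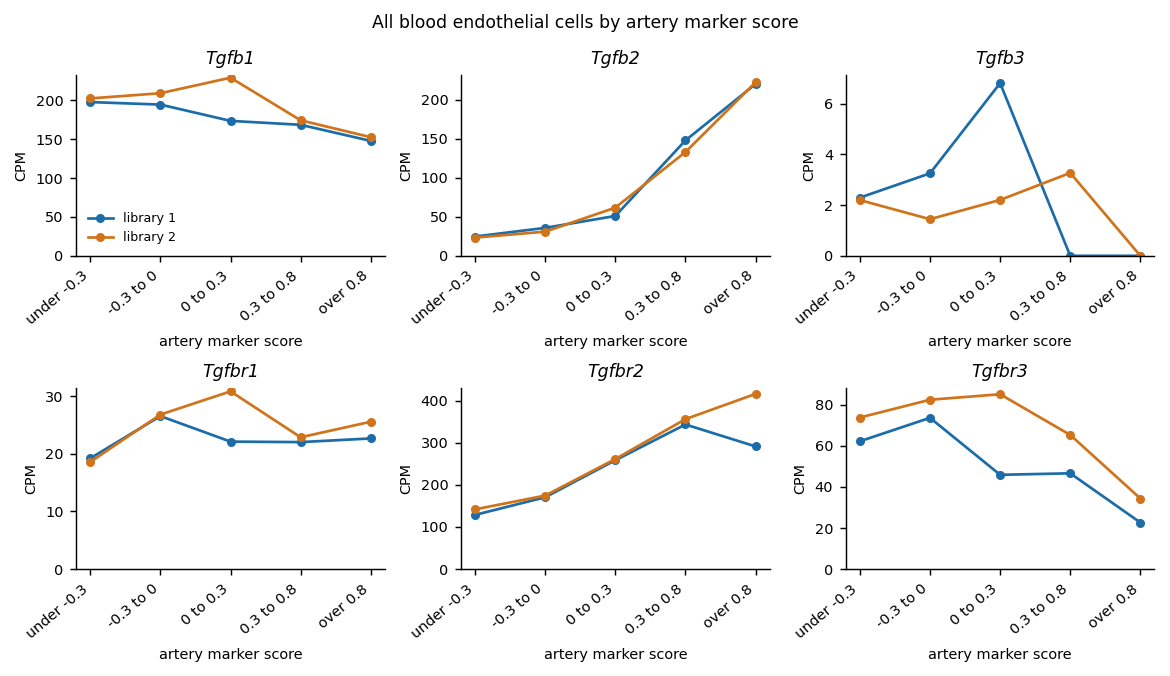
Level of the members (CPM, linear axes) in bins of the artery marker score over all blood endothelial cells, with 1 line per library. Tgfb2 climbs from 24.7 and 23.3 CPM in the lowest bin to 220 and 222 CPM in the highest, Tgfbr2 is higher and Tgfbr3 lower at high scores.

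Other genes of the pathway also differed between artery-like and vein-like cells. Of 29 tested genes known to respond to TGF-beta, 11 were higher and 5 lower in artery-like cells, with a list median of 0.24 beside -0.025 for all genes. The matrix protein fibronectin, Fn1, was 740 and 713 CPM in artery-like and 75.4 and 18.5 CPM in vein-like cells, a log2 change of 4.08 (adjusted p = 1.41e-06), and the collagen cross-linking enzyme Lox was higher by 2.65 (adjusted p = 9.40e-05). Among 20 transducers and regulators, 4 were higher and 5 lower. The inhibitor Smad7 was 267 and 240 CPM in artery-like and 64.3 and 100 CPM in vein-like cells (1.63, adjusted p = 4.72e-05), and the inhibitor Smad6 was higher by 2.18 (adjusted p = 5.47e-05). Of 8 other receptors of the branch, Acvrl1 was 236 and 238 CPM in artery-like against 92.8 and 91.1 CPM in vein-like cells (1.35, adjusted p = 4.78e-06), and endoglin, Eng, was lower by a small amount (-0.40, adjusted p = 0.00687). The 16 latency and activation genes split evenly, 4 higher and 4 lower: Ltbp4, which tethers latent ligand to the matrix, was higher by 2.19, and the microfibril gene Fbn1 was lower, with a log2 change of -1.82 (both adjusted p = 1.41e-06).

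Capillary-like cells were compared with artery-like and vein-like cells, the latter pair weighted equally on the log scale. Tgfb2 was lower in capillary-like cells (-1.50 ± 0.17, adjusted p = 8.77e-05) and Tgfbr3 was higher (0.48 ± 0.13, adjusted p = 0.0368). These 2 of 6 members stand beside 9.46% of all genes, 4.98% higher and 4.48% lower. Since vein-like and capillary-like Tgfb2 levels overlapped, the Tgfb2 difference lies toward the artery-like cells. The Tgfbr3 call was lost in 4 of 8 other fits. Tgfb1 (0.18), Tgfb3 (0.62), Tgfbr1 (-0.15) and Tgfbr2 (-0.19) did not pass, with adjusted p from 0.353 to 0.783. Among latency and activation genes 8 of 16 were lower and 1 was higher, with a list median of -0.50, and they included Fbn1 (-2.57), Mmp2 (-5.88) and Ltbp4 (-0.99). Immediate-early and stress genes were lower for 8 of 24 and higher for none, with a list median of -0.45, and their part was not tested.

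Tip-like cells, which lead sprouting, were compared with capillary-like cells. These 2 classes shared markers: the capillary markers summed to 3717 and 3448 CPM in tip-like and 6262 and 5538 CPM in capillary-like cells. Of the capillary-like cells, 92 lay in the Leiden cluster named tip-like. How far this overlap hides differences was not tested. None of the 6 members passed the edgeR test, and none passed with DESeq2, where edgeR called 2.91% of all genes, 1.23% higher and 1.68% lower. At an unadjusted p under 0.05 there were 2. Tgfb1 had a log2 change of 0.32 ± 0.11 (adjusted p = 0.172) and Tgfbr2 of -0.37 ± 0.13 (adjusted p = 0.176), each with the same sign in both libraries. Some genes around the members did differ. Acvrl1 was lower (-0.61, adjusted p = 0.0194), Smad6 was lower (-1.88, adjusted p = 0.0351), and Smad1, a transducer of the Acvrl1 branch, was higher (0.83, adjusted p = 0.0240). Of 29 genes known to respond to TGF-beta, 5 were higher and none lower, among them the cytoskeletal genes Vim (0.47, adjusted p = 0.00179) and Tagln (1.06, adjusted p = 0.0155).

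Lymphatic-like cells were compared with the 4 blood endothelial classes, each weighted equally on the log scale. Tgfb3 and Tgfbr2 were higher and Tgfbr1 and Tgfbr3 lower in lymphatic-like cells. With Tgfb2, 5 of 6 members were called, in a comparison that called 45.6% of all 10577 genes, 22.7% higher and 22.9% lower. The Tgfb3 change was 4.86 ± 0.24 (adjusted p = 4.26e-09). Summed over the blood classes, 405 lymphatic-like UMIs stood against 30, a ratio of levels of 19.4 (95% counting interval 13.4 to 29.1), 16.8 in library 1 and 22.8 in library 2. Tgfbr2 was higher by 0.62 ± 0.091 (adjusted p = 0.000101). Tgfbr1 (-0.67 ± 0.16, adjusted p = 0.00435) and Tgfbr3 (-0.38 ± 0.11, adjusted p = 0.0118) were lower and lost their calls with DESeq2, Tgfbr3 also without the library term. Tgfb1 did not pass (0.09, adjusted p = 0.413).

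For Tgfb2 in lymphatic-like cells the sign depends on how the blood classes are joined. The fit, which weights the 4 classes equally as logs, gave 0.36 ± 0.11 (adjusted p = 0.0212), because 3 of them were at 18.6 to 27.5 CPM. Against the pooled UMIs of the blood classes, to which artery-like cells contribute most Tgfb2, the ratio was 0.653 (0.540 to 0.787) in library 1 and 0.930 (0.813 to 1.06) in library 2. The level in lymphatic-like cells thus lay below artery-like cells and above the capillary-like, vein-like and tip-like cells in both libraries. The call was lost in 5 of 9 other fits.

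**Figure D3:**
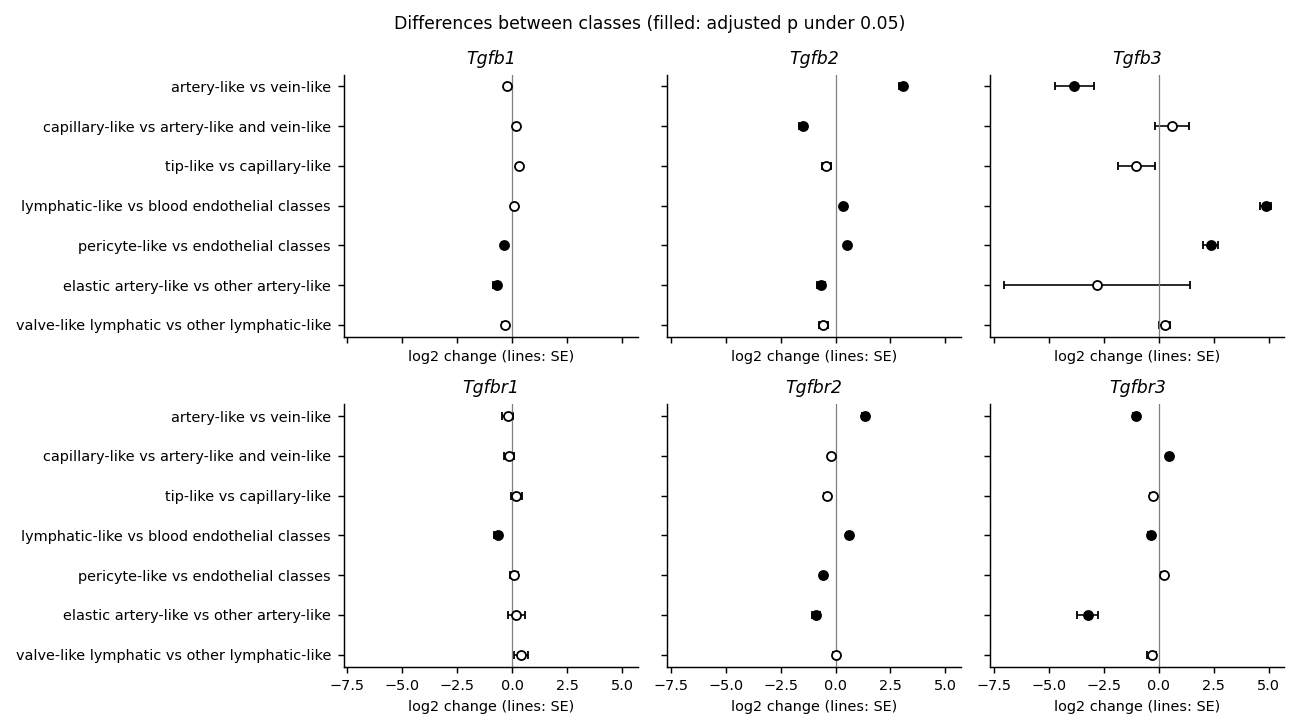
Log2 change of each member in the 7 pairwise comparisons, with bars of 1 SE from the edgeR fit; filled points passed an adjusted p of 0.05. Tgfb2 at 3.07 in artery-like against vein-like cells and Tgfb3 at 4.86 in lymphatic-like against blood classes lie farthest to the right, and no member is filled in the tip-like and valve-like comparisons.

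Many genes that act on the ligands also differed between lymphatic-like and blood classes. Of 16 latency and activation genes tested, 11 were higher and 3 lower in lymphatic-like cells, with a list median of 1.06 beside 0.0058 for all genes. Thbs1, thrombospondin-1, a matrix protein able to release active ligand, was 59.3 and 76.9 CPM in lymphatic-like cells and 0.564 to 12.3 CPM in the blood classes (4.13, adjusted p = 4.27e-09). The proprotein convertase Pcsk6 was 141 and 184 CPM (5.59, adjusted p = 6.91e-10) and Emilin1, which restrains the maturation of the ligand precursor, was 90.7 and 94.0 CPM (2.49, adjusted p = 1.26e-09). Nrros, which anchors latent ligand on cell surfaces, was 5.71 and 4.15 CPM there against 53.8 to 178 CPM in the blood classes (-4.40, adjusted p = 2.11e-10).

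Several other receptors, among them Acvrl1, and the inhibitors Smad6 and Smad7 were lower in lymphatic-like cells. Of 8 other receptors, 5 were lower and none higher, with a list median of -0.80. Eng was 169 and 165 CPM in lymphatic-like cells against 415 to 669 CPM in the blood classes (-1.67, adjusted p = 2.42e-09), Acvrl1 was 35.9 and 36.0 CPM (-1.75, adjusted p = 1.78e-08) and Bmpr2 fell by 1.07 (adjusted p = 4.73e-06). Of 20 transducers and regulators 5 were higher and 5 lower, with a list median of 0.021. Smad7 was 4.12 and 8.86 CPM (-4.11, adjusted p = 5.62e-09). Smad6 had no UMI in 870 lymphatic-like cells and 311 in the blood classes, at least 72.2-fold lower when the floor is 3 UMIs over the group. Dab2, an adaptor that binds the receptors, was higher (1.33, adjusted p = 4.97e-07). Of 29 response genes 11 were higher, among them Tgfbi (4.53) and Loxl2 (4.21), and 14 were lower, among them Sparc (-3.84). Immediate-early and stress genes were lower for 17 of 24, with a list median of -0.77, and their part in these differences was not tested.

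Pericyte-like cells, gated by markers of the mural cells that wrap capillaries, were compared with the 5 endothelial classes. In the fit, which weights these classes equally on the log scale, Tgfb3 and Tgfb2 were higher and Tgfb1 and Tgfbr2 lower. These 4 of 6 members stand beside 19.5% of all 10903 genes called, 12.8% higher and 6.76% lower. Tgfb3 changed by 2.36 ± 0.35 (adjusted p = 0.000131), Tgfb2 by 0.54 ± 0.13 (adjusted p = 0.00577), Tgfb1 by -0.35 ± 0.094 (adjusted p = 0.0140) and Tgfbr2 by -0.57 ± 0.10 (adjusted p = 0.000797). Tgfbr1 (0.08) and Tgfbr3 (0.21) did not pass. The calls of Tgfb1 and Tgfb2 were lost with DESeq2, that of Tgfb1 also with stricter gates (adjusted p = 0.0582) and that of Tgfb2 also in Leiden clusters (0.20, adjusted p = 0.347). As for Tgfb2 in lymphatic-like cells, equal weights on the log scale matter for Tgfb3: against the pooled endothelial UMIs its ratio was 1.13 in library 1 and 0.602 in library 2, and 0.792 (0.563 to 1.09) over both, since lymphatic-like cells hold most of the pool. Pericyte-like cells thus had more Tgfb3 than the blood classes and less than lymphatic-like cells. The weights matter for Tgfb2 too: its pooled ratio was 0.922 in library 1, 1.12 in library 2 and 1.03 (0.885 to 1.20) over both. Tgfb2 in pericyte-like cells lay far below artery-like cells and above the other endothelial classes in both libraries. Markers of lymphatic endothelium summed to 10.3 and 216 CPM in pericyte-like cells, against 12606 and 15148 CPM in lymphatic-like cells. Smooth muscle markers summed to 1695 and 1094 CPM in pericyte-like cells, against 30.4 to 90.2 CPM in the blood classes. Fibroblast markers summed to 495 and 709 CPM, against 0.688 to 21.6 CPM. The class therefore cannot be taken as capillary pericytes alone.

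Most pericyte-like cells also carried endothelial RNA, and Tgfb1 and Tgfbr2 were higher in the cells that did. Of the 239 cells, 184 had UMIs of at least 3 of the 6 endothelial markers and 55 (16 and 39) had 2 or fewer. In the latter, Pecam1 was 0 and 29.1 CPM, and the median depth was 6299 and 5922 UMIs against 13416 and 13524 in the others. Tgfbr2 was 63.2 and 62.3 CPM (6 and 15 UMIs) in the cells with few endothelial markers and 139 and 174 CPM in the rest. Tgfb1 was 73.7 and 83.0 CPM against 166 and 158 CPM. Both genes were thus lower in the cells with little endothelial RNA, in each library. Tgfb2 was 42.1 and 74.7 CPM against 60.9 and 62.2 CPM, in opposite directions in the 2 libraries, and Tgfb3 was 21.1 and 20.8 CPM (2 and 5 UMIs) against 17.2 and 9.51 CPM. The cells with few markers alone were also compared with the endothelial classes by edgeR. Tgfbr2 was lower by a log2 change of -1.85 (adjusted p = 1.90e-05), Tgfb1 by -1.31 (adjusted p = 0.000165) and Tgfb3 higher by 2.95 (adjusted p = 0.00703). These changes rest on 21 Tgfbr2, 27 Tgfb1 and 7 Tgfb3 UMIs in the cells with few markers. The fit was run although its 16 cells in library 1 were under the minimum of 20 per library set for the others. In that fit the median change of all genes was -0.15, Tgfb2 did not pass (0.58, adjusted p = 0.222), and neither did Tgfbr1 (-0.31, adjusted p = 0.780) and Tgfbr3 (-0.58, adjusted p = 0.280).

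**Figure D4:**
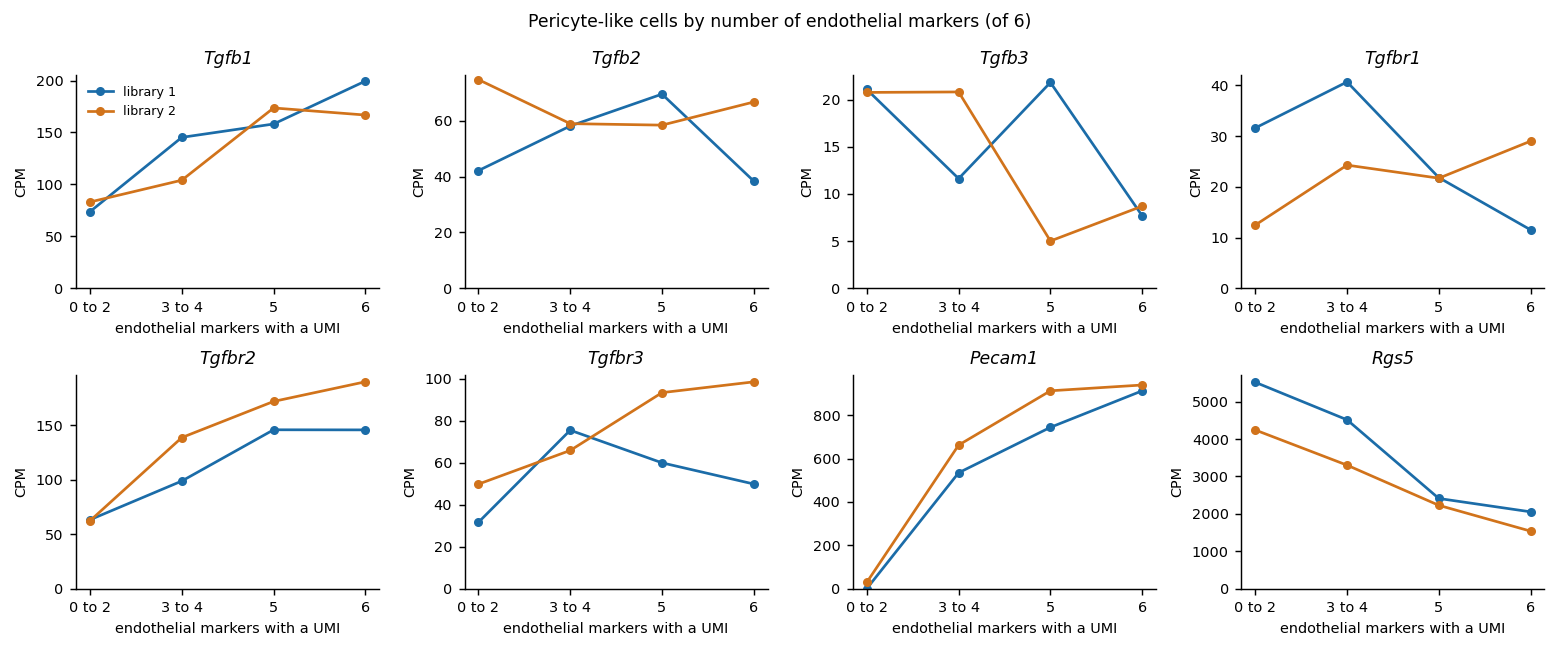
Level of the members in pericyte-like cells (CPM, linear axes) against the number of the 6 endothelial markers a cell carried, in 4 bins, with 1 line per library, and of Pecam1 (endothelial) and Rgs5 (pericyte) for comparison. Tgfb1 and Tgfbr2 are lowest in the bin of 0 to 2 markers, at 73.7 and 83.0 CPM and at 63.2 and 62.3 CPM.

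Genes known to respond to TGF-beta were higher in pericyte-like cells for 16 of 31 and lower for 1, with a list median of 0.71 beside 0.0099 for all genes. Zeb2, a transcription factor, was 419 and 438 CPM against 0.317 to 45.2 CPM in the endothelial classes (6.28, adjusted p = 1.04e-15), and Acta2, Col1a1 and Col1a2 were also higher. Acta2 and Tagln also stand in the smooth muscle marker list that described the classes, and Col1a1 and Col1a2 in the fibroblast list that took part in gating. Of 18 latency and activation genes, 8 were higher, among them the microfibril gene Fbn2 at 57.1 and 60.0 CPM (6.64, adjusted p = 8.99e-10) and the integrin Itgb5 at 40.4 and 39.6 CPM (4.48, adjusted p = 3.37e-09), and 1, Ltbp4, was lower (-1.11, adjusted p = 3.27e-05). Of 9 other receptors of the branch, 1 was higher and 3 were lower, with a list median of -0.24. The higher one, the BMP receptor Bmpr1a, was 43.6 and 29.7 CPM in pericyte-like cells and at most 2.39 CPM in an endothelial class (5.76, adjusted p = 1.99e-08). Among 20 transducers and regulators, 3 were higher and 3 lower. Of 24 immediate-early and stress genes 7 were higher and 2 lower, with a list median of 0.28, and their part was not tested.

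Within the artery-like cells, 97 (59 and 38) scored high for 5 genes of elastic arteries and 362 did not. The elastic genes also marked part of the vein-like cells, where they summed to 6064 and 1339 CPM, against 26488 and 26082 CPM in elastic artery-like cells. In elastic artery-like cells 4 of the 6 members were lower, and none was higher, beside 5.99% of 10571 genes called, 3.05% higher and 2.94% lower. Tgfbr3 was 2.53 and 8.20 CPM (1 and 2 UMIs) against 38.3 and 55.0 CPM (49 and 84 UMIs) in the other artery-like cells. Over both libraries this is a ratio of 0.0991 with a counting interval of 0.0202 to 0.296, and the call held in every other fit that could test it (adjusted p = 0.000403 with edgeR). Tgfbr2 was 170 and 258 CPM against 350 and 418 CPM (-0.89 ± 0.16, adjusted p = 0.00298). Tgfb2 was 137 and 143 CPM against 239 and 206 CPM (-0.68 ± 0.17, adjusted p = 0.0305), and Tgfb1 was 101 and 102 CPM against 167 and 165 CPM (-0.71 ± 0.18, adjusted p = 0.0242). The Tgfb2 and Tgfb1 calls were lost with DESeq2, and that of Tgfb2 also with looser gates (-0.60, adjusted p = 0.0515) and in Leiden clusters (-0.22, adjusted p = 0.595). Tgfb3 had 1 UMI in all artery-like cells and Tgfbr1 did not pass.

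Some other genes of the pathway were higher in the same elastic artery-like cells, and some were lower. Of 17 latency and activation genes 5 were higher and 1 lower, with a list median of 0.87: Ltbp4 was 1376 and 1910 CPM against 610 and 542 CPM (adjusted p = 0.000218), Ltbp3 was higher by 2.58 (adjusted p = 0.000327) and the matrix metalloproteinase Mmp2 by 5.87 (adjusted p = 1.53e-06). Among 20 transducers and regulators 4 were higher and 1 lower. Skil, a repressor of SMAD transcription, was 124 and 152 CPM against 42.3 and 43.9 CPM (1.66, adjusted p = 0.000105), Pmepa1, an inhibitor of SMAD signalling, was 190 and 193 CPM against 68.1 and 40.6 CPM (1.80, adjusted p = 0.00102), and Smad6 was higher by 1.45 (adjusted p = 0.00406). None of 8 other receptors of the branch was called, and of 30 response genes 8 were higher and 4 lower. Among these, Lox was 395 and 266 CPM against 24.3 and 7.20 CPM (4.45, adjusted p = 4.20e-06). The basement membrane collagen Col4a1 was 58.3 and 176 CPM against 1580.1 and 1508 CPM (-3.87, adjusted p = 2.85e-06). Smooth muscle markers summed to 122 and 369 CPM in elastic artery-like and to 25.0 and 29.5 CPM in other artery-like cells. Of 24 immediate-early and stress genes 8 were lower and none higher, with a list median of -0.85. The part of smooth muscle RNA and of these genes in the differences was not tested.

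Among the lymphatic-like cells, 123 (41 and 82) scored high for 5 lymphatic valve genes and 747 did not. None of the 6 members passed the edgeR test, in a comparison that called 8.23% of 10687 genes (3.66% higher, 4.58% lower), and 2 had an unadjusted p under 0.05. These were Tgfb1, at 175 and 167 CPM in valve-like and 185 and 231 CPM in other lymphatic-like cells (-0.33, adjusted p = 0.142), and Tgfb2, at 26.0 and 44.9 CPM against 50.9 and 56.2 CPM (-0.55, adjusted p = 0.152). DESeq2 called none either. Tgfb3 was 54.3 and 42.5 CPM in valve-like cells and 39.95 and 37.2 CPM in the others. Among regulators Skil was again higher (1.20, adjusted p = 0.00281), as was Fn1 (1.30, adjusted p = 0.00821) among the response genes, of which 4 of 29 were higher and 3 lower. Of 24 immediate-early and stress genes 7 were higher and 1 lower in valve-like cells, with a list median of 0.58, and their part in these differences was not tested.

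**Figure D5:**
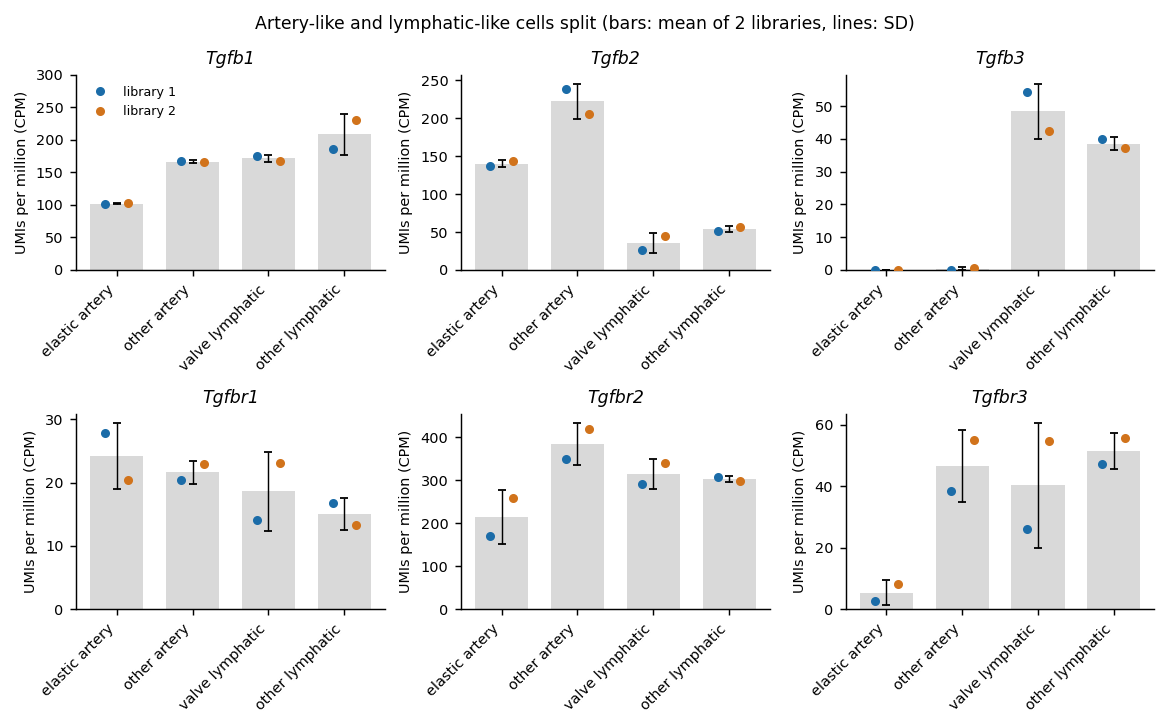
Level of the members (CPM, linear axes) in elastic and other artery-like cells and in valve-like and other lymphatic-like cells, with 1 point per library, bars for the mean and lines for the SD. Tgfbr3 is at 2.53 and 8.20 CPM in elastic artery-like cells and at 38.3 and 55.0 CPM in other artery-like cells, and the valve-like and other lymphatic-like points of Tgfbr2 overlap.

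Ligand and receptor UMIs were also looked for in the same cells, thinned to 5000 UMIs. Between 3.93% and 8.99% of the cells of a class and library had UMIs of both Tgfbr1 and Tgfbr2, where the product of the 2 separate shares gave 3.94% to 7.95%. Tgfb1 and Tgfbr2 were found together in 17.4% to 48.4% of cells, beside products of 20.1% to 47.3%. Tgfb2 and Tgfbr3 were found together in 1.69% to 7.09% of cells, beside products of 1.89% to 7.21%. The joint shares of these 3 pairs were above the product in 8, 10 and 5 of 12 classes and libraries. Cells with neither UMI cannot be called negative at this depth.

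Of the genes searched, those whose pattern over the 5 endothelial classes and 2 libraries (10 points that share libraries) was most like a member's were found by Pearson's r among 4331 genes, as a description with no test. For Tgfb2 they were Tmem109 (0.965), Clstn1 (0.961) and Sept11 (0.958), and for Tgfbr2 Cald1 (0.974), Atp13a3 (0.974) and Zc3h14 (0.960). For Tgfb3 they were Jmy (0.981), Coq7 (0.970) and Nelfcd (0.965), and for Tgfbr3 Tshz2 (0.978), Mrrf (0.967) and Mapk8 (0.964). Tgfb1 was most like Fkbp1a (0.980), Nudcd2 (0.958) and Fam162a (0.952), and Tgfbr1 like Brox (0.962), Ddx23 (0.943) and St3gal6 (0.938). With 10 points and 4331 genes, high values of r are common, and the lists say nothing of shared control.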

How the data were processed

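The 2 mRNA libraries of the sorted ear cells were used. Per the labels' protocols they were made with the 10x Chromium Single Cell 3′ kit (version 3), and the submitters' processing notes name Cell Ranger, Seurat 3.0.2 and the mm10 build. The deposited values are raw UMI counts, 1 matrix per library, not normalized by the authors.

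Barcodes with under 500 genes or over 10% mitochondrial UMIs were left out (under 500 genes: 26 and 45, over 10%: 240 and 616, with some in both), as were 14 doublets called by Scrublet in scanpy 1.11.5. A caller that marks this few (0.373%) of the cells may miss doublets. Cells with UMIs of at least 4 markers of 1 other lineage were gated to it. Others needed 3 of 6 endothelial markers, and were lymphatic-like with 3 of 6 lymphatic markers. Blood endothelial cells took the class with the highest mean marker z-score, if above 0.3 and ahead by 0.2. Elastic artery-like and valve-like cells scored above 0.5. UMIs were summed per class and library (1261049 to 7225818 for the 6 classes) and fitted with edgeR 4.0.16 (R 4.3.3; TMM, filterByExpr, quasi-likelihood, library as a block, threshold 0.05), with residual degrees of freedom of 4 or 5. The library numbers pair the classes, since all classes of a library are the same sample, and library differences correlated at 0.283 to 0.508 between classes over 4558 genes. On simulated artery-like and vein-like data (10577 genes), 90.0% of 4-fold and 55.0% of 2-fold changes were found, with 3.97% false calls. The simulation changed 200 genes in artery-like cells alone and held no library difference and no differences among the other classes. Its shares may therefore not hold for the real data. DESeq2 1.42.0, other filters, gates, Leiden clusters and cell filters were alternatives. All members were named, with up to 4 genes per pathway list by adjusted p and 3 like genes per member. 1 item is not reported here. The members and lists were chosen with earlier results of these data known. Antibody tag counts were not used.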

Additional observations from a re-analysis of the deposited data

How the results depend on the processing

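Of 25 member calls, 12 were kept in each alternative that could test them: Tgfb2, Tgfb3 and Tgfbr2 over the endothelial classes, Tgfb2 and Tgfbr2 between artery-like and vein-like cells, Tgfb2 in capillary-like cells, Tgfb3 and Tgfbr2 in both lymphatic-like and pericyte-like cells, and Tgfbr2 and Tgfbr3 in elastic artery-like cells. With DESeq2 size factors 48 of 48 member values kept direction and call. With DESeq2, 11 member calls were lost. Its likelihood ratio test called 3058 genes in the any-difference comparison (5163 with edgeR). Its Wald test called 998 genes artery-like against vein-like (2001 with edgeR), 537 capillary-like (1001), 168 tip-like (308), 2765 lymphatic-like (4821), 1209 pericyte-like (2130) and 495 valve-like (880). The Wald test called 1 member in capillary-like, 2 in lymphatic-like, 2 in pericyte-like and 2 in elastic artery-like cells. With no filter on low counts, 679 genes were called in tip-like and 1379 in valve-like cells. With no replicate block, which ends the pairing by library, genes called were 615 capillary-like (1 member), 116 tip-like and 436 valve-like. The block changed no direction, and without it 4 member calls were lost. Stricter gates gave 538 genes in tip-like cells and looser gates 1 member in capillary-like cells. The stricter cell filter gave 3369 genes of any difference, 1018 artery-like and 437 capillary-like (1 member), and leaving out dividing cells 335 valve-like. Members that changed sign were not called in the main fit, except Tgfb2 in lymphatic-like cells, which was -0.031 in Leiden clusters. The others were elastic artery-like Tgfb3 (0.74 with DESeq2, 0.93 with stricter gates, 2.02 in Leiden clusters) and Tgfbr1 (-0.12 in Leiden clusters), valve-like Tgfbr2 (-0.039 with no filter, -0.0076 with looser gates, -0.088 in Leiden clusters, -0.15 without dividing cells), Tgfb3 (-0.021 in Leiden clusters) and Tgfbr1 (-0.41 without dividing cells), tip-like Tgfbr1 (-0.085 with the stricter cell filter), and pericyte-like Tgfbr1 (-0.31) and Tgfbr3 (-0.58) in cells with few endothelial markers. The cause of these changes was not tested. Leiden clusters gave no capillary-like cluster, so no value for 3 comparisons, and the stricter cell filter left under 20 cells in at least 1 library of the pericyte-like (29 and 19), elastic artery-like (24 and 13) and valve-like (12 and 11) classes, so no value. The fit of pericyte-like cells with few endothelial markers was run with 16 cells in library 1, although this too is under 20. Leaving out a library leaves 1, so values without a test. Depth limits Tgfb3 in blood classes (30 UMIs) and Tgfbr3 in elastic artery-like cells (3 UMIs).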

Other observations

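Outside the vessel classes, the 13 keratinocyte-like cells (7 and 6) had Tgfb3 at 204 and 31.5 CPM (29 and 3 UMIs) and Tgfb2 at 155 and 63.0 CPM (22 and 6 UMIs), with Tgfbr2 at 14.1 and 10.5 CPM. The libraries differed in Tgfb3 by more than the lymphatic-like cells did, and so few cells allow no ranking. Erythroid-like cells (30 and 43), gated by red cell markers before the endothelial gate, had Tgfbr3 at 68.7 and 110 CPM. They formed no Leiden cluster of their own and lay in clusters of blood endothelial cells. Their Tgfbr2 was 124 and 220 CPM. The Tgfbr3 level therefore cannot be read as one of red blood cells. Blood endothelial cells that met no gate had Tgfb2 at 39.5 and 43.0 CPM, between the vein-like and artery-like levels.

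Dividing cells, those with UMIs of at least 4 of 10 division genes, had lower levels of several members than other cells of their class. Tgfbr2 stood lower in dividing cells in 9 of 10 pairs of class and library, with a median log2 ratio of -0.36, and Tgfbr3 in 9 of 10 as well, with a median of -0.32. Tgfbr1 stood lower in 8 of 10 (median -0.31) and Tgfb2 in 7 of 10 (median -0.47). Tgfb1 was close to level (higher in 4 of 10, median -0.03), and Tgfb3 was higher in 5 of the 7 pairs with UMIs in both (median 0.30). The same share over all genes was not computed, so the counts cannot be read as particular to the members. In artery-like cells Tgfb2 was 222 CPM in other and 103 CPM in dividing cells of library 1, and 213 and 43.6 CPM in library 2. These ratios were not tested, and dividing artery-like cells numbered 12 and 14.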
